A study of Mus musculus with 19 samples.

Results

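The 10 genes described here are markers of deep layer neurons of the cerebral cortex: Foxp2, Syt6, Tle4, Tbr1, Ntsr1, Fezf2, Etv1, Bcl11b, Crym and Ccn2 (formerly Ctgf). They were taken as a list of names from a table of 20938 genes, and all 10 were found and passed the filter on low counts. The list was chosen with earlier results of these data known. Counts of members set beside all genes are therefore not an independent test. RNA came from the left prelimbic cortex of mice, a medial prefrontal area, and was sequenced in 19 libraries. The 4 SCZ+c-MSST and 4 SCZ libraries came from mice given MK-801, an NMDA receptor channel blocker used to model schizophrenia, at 0.2 mg/kg by daily intraperitoneal injection for 2 weeks. The 5 Control+c-MSST and 6 Control libraries came from mice given saline on the same schedule. In both c-MSST groups, ferumoxytol iron oxide nanoparticles were injected 1 time into the left prelimbic cortex by stereotactic surgery, and the mice then moved freely within a pulsed magnetic field. Tissue was taken on day 3 after surgery. The labels do not give strain, sex, age or batch, nor whether the SCZ and Control groups had surgery, so comparisons of c-MSST cannot be told apart from an effect of surgery and injection if they had none. Nothing in the labels ties a library to a named animal, and p-values measure the spread between these libraries.

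Layers 5 and 6 hold the neurons that carry the output of the cortex. Layer 5 extratelencephalic neurons project to the brainstem and spinal cord and depend on Fezf2 and Bcl11b, whereas layer 6 corticothalamic neurons project to the thalamus and are shaped by Tbr1, Tle4 and Foxp2. Several of these genes are not restricted to the cortex: Foxp2, Bcl11b and Crym are also well known from neurons of the striatum, which lies beneath the frontal cortex. In bulk tissue, fewer cells of a type and less RNA per cell cannot be told apart.

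Promoter sequences are shown for 4 members whose levels moved in opposite directions across the libraries, Syt6 and Tle4 against Ntsr1 and Fezf2. RefSeq (GRCm38.p6) listed a start for 7 of the 10 members, and Foxp2, Crym and Ccn2 were not matched. Each line gives the 250 bases upstream of the first listed start, 5′ to 3′ on the strand of the gene. Capitals mark a GC box (GGGCGG) or a CCAAT box (CCAAT), or the same letters read on the opposite strand (CCGCCC for the first and ATTGG for the second). The windows lie at chr3:103574995-103575244 (plus strand, Syt6), chr19:14598184-14598433 (minus strand, Tle4), chr2:180499726-180499975 (plus strand, Ntsr1) and chr14:12345866-12346115 (minus strand, Fezf2).
Syt6: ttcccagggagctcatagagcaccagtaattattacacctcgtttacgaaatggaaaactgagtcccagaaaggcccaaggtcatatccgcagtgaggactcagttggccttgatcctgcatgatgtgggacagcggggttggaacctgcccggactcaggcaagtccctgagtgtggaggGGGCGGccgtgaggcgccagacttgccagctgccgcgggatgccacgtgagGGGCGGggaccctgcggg
Tle4: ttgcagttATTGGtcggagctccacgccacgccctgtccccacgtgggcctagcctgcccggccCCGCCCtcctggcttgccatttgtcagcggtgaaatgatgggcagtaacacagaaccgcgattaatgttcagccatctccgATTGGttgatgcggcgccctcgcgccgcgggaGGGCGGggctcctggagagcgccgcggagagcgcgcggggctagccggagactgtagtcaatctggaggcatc
Ntsr1: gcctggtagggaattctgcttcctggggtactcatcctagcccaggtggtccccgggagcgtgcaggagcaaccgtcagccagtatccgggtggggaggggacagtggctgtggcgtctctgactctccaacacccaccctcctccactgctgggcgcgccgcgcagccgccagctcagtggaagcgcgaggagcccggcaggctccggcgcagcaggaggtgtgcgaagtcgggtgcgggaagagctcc
Fezf2: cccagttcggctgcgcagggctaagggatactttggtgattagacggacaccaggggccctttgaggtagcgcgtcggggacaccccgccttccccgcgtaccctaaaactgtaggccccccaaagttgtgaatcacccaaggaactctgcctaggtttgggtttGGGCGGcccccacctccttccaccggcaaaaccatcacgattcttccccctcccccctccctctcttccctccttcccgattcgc
The Syt6 window held 2 GC boxes, the Tle4 window 2 GC boxes and 2 CCAAT boxes, the Fezf2 window 1 GC box, and the Ntsr1 window neither. A GC box occurred in 32.7% and a CCAAT box in 33.8% of all 32851 RefSeq windows of this length, on either strand. TATAAA, in 12.4% of all windows, was in none of these 4, and neither were the T-box letters GGTGTGA (3.33%), the ETS letters CCGGAAG (6.91%) or the forkhead letters TGTTTAC (3.17%). The windows of these 4 members ran from 60.4% to 68.4% G and C, against a median of 52.4% over all windows. Those of Bcl11b (44.8%), Tbr1 (45.2%) and Etv1 (46.4% and 44.4% for its 2 starts), not shown, lay below that median. The second Etv1 window held TATAAA. Syt6 has 3 listed starts and Tle4 has 2, and the Fezf2 window lies inside the annotated span of the gene (12342094 to 12348189 on chromosome 14 of mm10).

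Library totals were 66828543 to 75090222 counts in SCZ+c-MSST, 65498768 to 82416746 in SCZ, 60577337 to 72866386 in Control+c-MSST and 50140626 to 66818266 in Control. Slc17a7, the vesicular glutamate transporter of cortical excitatory neurons, ran from 859 to 1462 CPM (counts scaled to library size). Markers of striatal neurons differed far more between libraries. The summed level of 11 of them was 1519 to 3407 CPM in SCZ+c-MSST libraries, 2190 to 2958 CPM in SCZ, 526 to 2229 CPM in Control+c-MSST and 396 to 2661 CPM in Control, and no library had any of the 11 at 0. Control replicates 2 and 3 stood apart: Ttr, the transthyretin of choroid plexus, reached 1607 and 150 CPM there against at most 7.78 CPM in the other libraries, and their striatal levels were the lowest of the 19. Member fold changes that rest on Control libraries are therefore also given without both, a setting chosen after the data were seen. All 8 comparisons were fitted over 16417 genes with edgeR, and a gene was called changed at a Benjamini-Hochberg adjusted p under 0.05.

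All 10 genes were expressed in every library, with raw counts from 466 (lowest Foxp2) to 20507 (highest Bcl11b). On the length-scaled FPKM values deposited by the authors, Etv1, an ETS transcription factor of layer 5, was the most abundant at 49.9 ± 13.5 FPKM (SD, n = 19). Tbr1 followed at 33.4 ± 5.44 FPKM and Tle4 at 23.7 ± 2.704 FPKM, and each of these 3 genes was above the next in all 19 libraries. Syt6 averaged 17.9 ± 6.76 FPKM and Crym 15.7 ± 4.74 FPKM, and Syt6 was the higher of the pair in 13 of 19 libraries, a gap within their spread. Bcl11b (8.94 ± 4.94 FPKM) was above Fezf2 (5.88 ± 1.80 FPKM) in 13 libraries, and Fezf2 was above Ccn2 (5.47 ± 0.985 FPKM) in 10, so these neighbours did not separate beyond their spread either. Ccn2 was above Foxp2 in 18 libraries, and Foxp2 (2.82 ± 1.06 FPKM) above Ntsr1 (1.35 ± 0.392 FPKM), the lowest member, in 16.

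**Figure D1:**
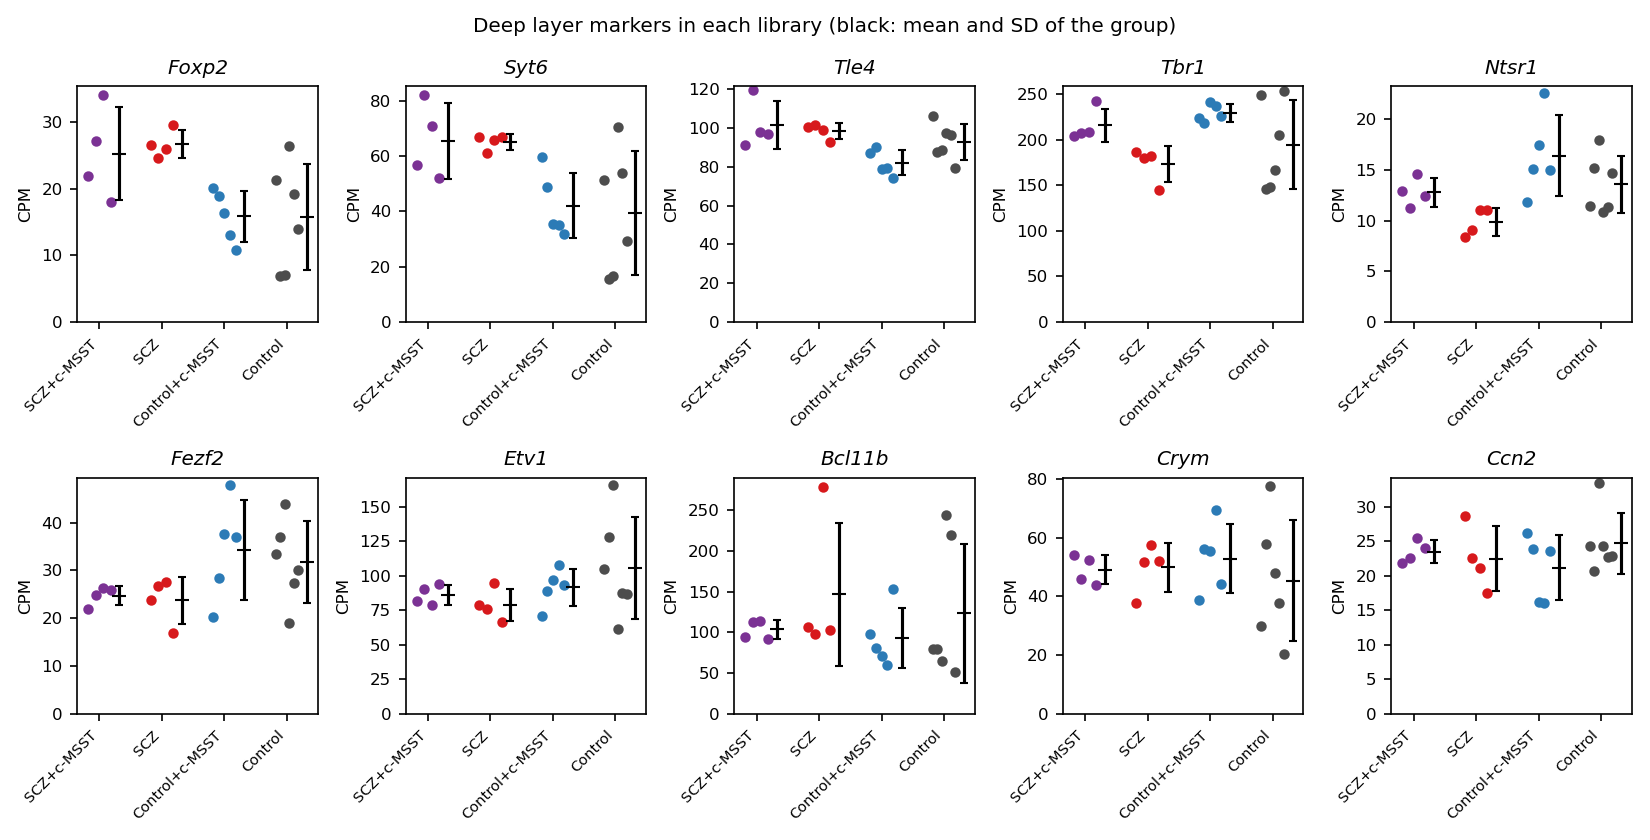
TMM-scaled CPM (y axis, from 0) of each of the 10 members in the 19 libraries (points) of the 4 groups (x axis), with the group mean and SD in black. Foxp2 and Syt6 sit higher in most MK-801 libraries than in most saline libraries, Tle4 does not overlap between SCZ+c-MSST and Control+c-MSST, and Bcl11b has 3 libraries at 220 CPM or more.

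Among the layer 6 members, Foxp2 is a forkhead transcription factor of corticothalamic neurons. Its levels were 21.8, 27.2, 34.0 and 17.95 CPM in SCZ+c-MSST libraries, 26.5, 24.6, 26.0 and 29.5 CPM in SCZ, and 20.1, 18.9, 16.3, 13.1 and 10.9 CPM in Control+c-MSST. Control libraries ran from 6.92 to 26.4 CPM with a median of 16.6 CPM. The 4 SCZ libraries were tightly grouped, and the wide Control group overlapped every other group, with replicates 2 and 3 lowest.

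Syt6, a member of the synaptotagmin family of membrane trafficking proteins, showed a similar pattern. It stood at 56.6, 81.97, 71.0 and 52.1 CPM in SCZ+c-MSST libraries, at 66.9, 61.0, 65.7 and 66.8 CPM in SCZ, and at 59.6, 48.7, 35.3, 34.9 and 31.9 CPM in Control+c-MSST. Control libraries ran from 15.5 to 70.6 CPM with a median of 40.2 CPM. Control spanned the whole range of SCZ, whose 4 libraries lay close together. Syt6 overlaps a gene on the opposite strand (Atg4a-ps), and the sources used here do not say whether reads were counted by strand, so its level carries that uncertainty.

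Tle4, a Groucho-family corepressor, varied least among the 10, by 1.61 times between its lowest and highest library. It stood at 91.3, 119, 98.0 and 96.8 CPM in SCZ+c-MSST libraries, against 87.3, 90.1, 79.1, 79.6 and 74.2 CPM in Control+c-MSST. SCZ libraries had 101, 102, 98.8 and 92.6 CPM, and Control libraries 79.4 to 106 CPM with a median of 92.7 CPM. Every SCZ+c-MSST library was above every Control+c-MSST library, by a small margin between the nearest of them.

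Tbr1, the T-box transcription factor of early-born layer 6 neurons, had 203, 208, 209 and 242 CPM in SCZ+c-MSST libraries, against 187, 180, 182 and 144 CPM in SCZ. Control+c-MSST libraries had 224, 218, 241, 237 and 226 CPM, against 146 to 253 CPM with a median of 185 CPM in Control. SCZ+c-MSST lay wholly above SCZ, whereas Control replicates 1 and 7 were above all 5 Control+c-MSST libraries and the other 4 below them. The Tbr1 level ran against the choroid plexus markers over the 19 libraries (Pearson r = -0.78, adjusted permutation p = 2e-04; Spearman rho = -0.88), and r was -0.74 without Control replicates 2 and 3 and -0.80 with group means subtracted. That marker level (mean log2 CPM) was only -2.56 to -0.75 in SCZ+c-MSST, -0.40 to 0.32 in SCZ and -2.09 to -0.84 in Control+c-MSST. Outside Control replicates 2 and 3 the relation therefore rests largely on low counts, and so does this level as a covariate in the fits below.

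Ntsr1, a neurotensin receptor whose regulatory elements are widely used to label corticothalamic neurons, had 12.9, 11.2, 14.6 and 12.4 CPM in SCZ+c-MSST libraries, against 8.36, 9.02, 11.05 and 11.08 CPM in SCZ. It had 11.8, 15.1, 17.5, 22.5 and 14.96 CPM in Control+c-MSST, against 10.8 to 17.96 CPM with a median of 13.0 CPM in Control. SCZ+c-MSST was again wholly above SCZ, and the highest library of all was Control+c-MSST replicate 6.

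Fezf2, the zinc finger factor that specifies corticofugal neurons, had 21.9, 24.8, 26.2 and 25.9 CPM in SCZ+c-MSST and 23.8, 26.7, 27.6 and 16.8 CPM in SCZ. It had 20.2, 28.5, 37.6, 47.9 and 37.0 CPM in Control+c-MSST and 18.96 to 44.0 CPM with a median of 31.7 CPM in Control. The 8 MK-801 libraries were all at 27.6 CPM or less, and 8 of the 11 saline libraries were above that.

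Etv1 had 81.5, 90.3, 78.9 and 94.1 CPM in SCZ+c-MSST libraries, 78.8, 75.9, 94.5 and 66.3 CPM in SCZ, and 71.1, 88.9, 97.2, 107 and 93.3 CPM in Control+c-MSST. Control ran from 61.2 CPM in replicate 4 to 166 CPM in replicate 3, with a median of 96.1 CPM. The widest spread was in Control, which enclosed all 3 other groups.

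Bcl11b, the partner of Fezf2 in subcerebral projection neurons, had 94.5, 113, 114 and 92.2 CPM in SCZ+c-MSST libraries, 106, 98.0, 278 and 103 CPM in SCZ, and 98.3, 80.6, 70.8, 60.1 and 153 CPM in Control+c-MSST. Control libraries ran from 51.6 to 244 CPM with a median of 79.3 CPM. SCZ replicate 3, Control replicate 4 and Control replicate 5 (220 CPM) were the 3 highest libraries, and 15 of the other 16 lay between 51.6 and 114 CPM. The spread within SCZ and within Control was larger than any gap between group means.

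Crym, a thyroid hormone binding protein enriched in deep layer projection neurons, averaged 49.1 ± 4.95 CPM in SCZ+c-MSST (SD, n = 4), 49.9 ± 8.45 CPM in SCZ (n = 4), 52.9 ± 11.9 CPM in Control+c-MSST (n = 5) and 45.3 ± 20.7 CPM in Control (n = 6). Ccn2, a secreted matricellular protein and a marker of layer 6b, averaged 23.5 ± 1.63 CPM in SCZ+c-MSST libraries, 22.4 ± 4.69 CPM in SCZ, 21.1 ± 4.72 CPM in Control+c-MSST and 24.7 ± 4.44 CPM in Control. Both genes had overlapping groups in every comparison. Ccn2 overlaps an opposite-strand transcript (Gm15270), with the same uncertainty as Syt6.

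MK-801 was compared with saline over all 8 and 11 libraries, averaging the SCZ+c-MSST against Control+c-MSST and the SCZ against Control contrasts. Foxp2 (26.0 ± 4.82 CPM in MK-801 mice and 15.8 ± 6.11 CPM in saline mice) and Syt6 (65.3 ± 9.13 CPM in MK-801 mice and 40.7 ± 17.6 CPM in saline mice) had the largest differences. Ntsr1 averaged 11.3 ± 2.03 CPM in MK-801 mice and 14.8 ± 3.54 CPM in saline mice, and Fezf2 24.2 ± 3.49 CPM in MK-801 mice and 32.9 ± 9.05 CPM in saline mice. None of the 10 members passed the edgeR test, and neither did any of the 16417 genes (0%). At an unadjusted p under 0.05 there were 5 members, against 16.6% of all genes. DESeq2, run as an alternative, called 2 members, Ntsr1 (adjusted p = 0.0300) and Tle4 (adjusted p = 0.0466), among 587 genes in all, whereas limma voom called none of the members and 190 genes.

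The edgeR log2 fold changes for MK-801 against saline were 0.71 for Foxp2 (SE 0.23, adjusted p = 0.143), 0.68 for Syt6 (SE 0.25, adjusted p = 0.185) and 0.20 for Tle4 (SE 0.058, adjusted p = 0.111). They were -0.41 for Ntsr1 (SE 0.12, adjusted p = 0.111), -0.45 for Fezf2 (SE 0.16, adjusted p = 0.177) and -0.26 for Etv1 (SE 0.15, adjusted p = 0.398). Without Control replicates 2 and 3 they were 0.54, 0.49 and 0.18 for Foxp2, Syt6 and Tle4, and -0.32, -0.34 and -0.099 for Ntsr1, Fezf2 and Etv1. Members with positive and negative values stood side by side within layer 6 (Foxp2 and Ntsr1), and the median over the 10 was 0.011, against -0.0011 over all genes. The groups overlapped for all 10 members, and 0.0244% of all genes had no overlap.

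Marker levels of other cell types moved with these values. All 11 striatal markers had a positive log2 fold change for MK-801 against saline, with a median of 1.12. Of them, 9 had an unadjusted edgeR p under 0.05, against 16.6% of all genes, although none passed the test (smallest adjusted p = 0.142). Drd2, a dopamine receptor of striatal projection neurons, had 41.2 to 101 CPM in SCZ+c-MSST libraries, 59.8 to 92.0 CPM in SCZ, 1.303 to 58.0 CPM in Control+c-MSST and 2.69 to 68.5 CPM in Control. All 8 excitatory neuron markers were negative (median -0.23, 4 at an unadjusted p under 0.05, smallest adjusted p = 0.0836). All 10 oligodendrocyte markers were positive (median 0.27, 2 at an unadjusted p under 0.05). Of 10 interneuron markers 7 were positive (median 0.12, 5 at an unadjusted p under 0.05, smallest adjusted p = 0.0826), whereas 9 of 10 choroid plexus markers (median -0.70) and 8 of 9 fibroblast markers (median -0.15) were negative. None of these markers passed. With the striatal level as a covariate in the edgeR fit, the log2 fold change was 0.087 for Foxp2 (SE 0.14), -0.0071 for Syt6 (SE 0.12) and 0.076 for Tle4 (SE 0.060). On the same footing it was -0.066 for Ntsr1 (SE 0.099), 0.015 for Fezf2 (SE 0.13) and 0.14 for Etv1 (SE 0.12). The excitatory neuron level as the covariate instead gave 0.38 for Foxp2 (SE 0.30), 0.34 for Syt6 (SE 0.32), 0.18 for Tle4 (SE 0.081), -0.40 for Ntsr1 (SE 0.18), -0.19 for Fezf2 (SE 0.22) and -0.081 for Etv1 (SE 0.20). The marker levels and the drug differ together between the groups, and their parts in the result cannot be told apart by these fits.

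**Figure D2:**
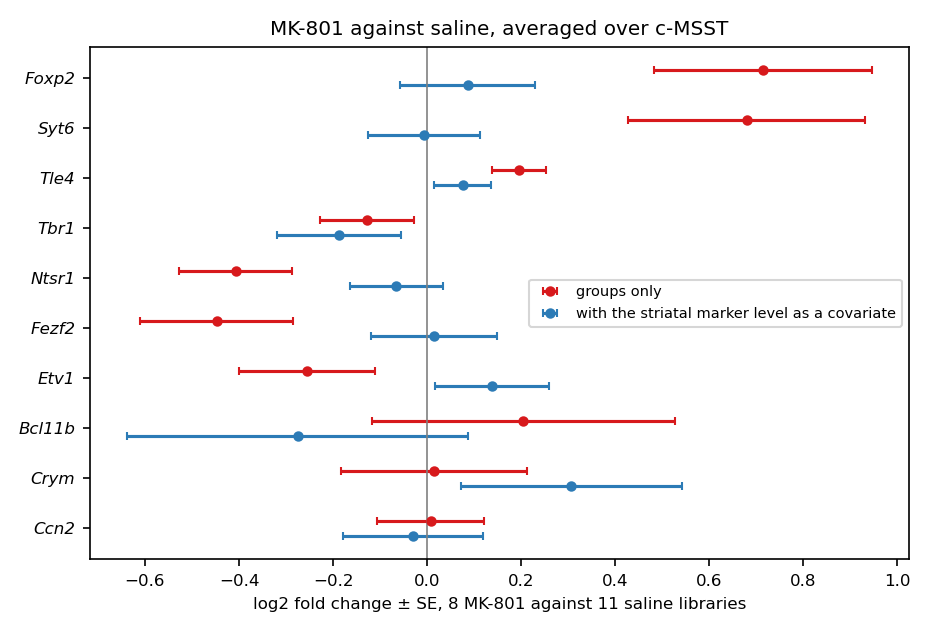
edgeR log2 fold change ± SE for MK-801 against saline (x axis) of each member (y axis), fitted with groups only (red) and with the striatal marker level as a covariate (blue). Foxp2 and Syt6 lie at 0.71 and 0.68 with groups only and at 0.087 and -0.0071 with the covariate.

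Separately by c-MSST, SCZ libraries compared with Control had the 2 largest positive values in Foxp2 (log2 fold change 0.76, SE 0.32, 95% interval 0.076 to 1.44, adjusted p = 0.315) and Syt6 (0.72, SE 0.35, -0.020 to 1.46, adjusted p = 0.381). Of 5 negative members, the largest values were those of Ntsr1 (-0.46, SE 0.17, -0.81 to -0.10, adjusted p = 0.249), Fezf2 (-0.42, SE 0.23, adjusted p = 0.427) and Etv1 (-0.42, SE 0.20, adjusted p = 0.377). No member passed in edgeR, DESeq2 or limma voom, and edgeR called 0% of all genes. At an unadjusted p under 0.05 there were 2 members, Foxp2 and Ntsr1, against 13.5% of all genes. Without Control replicates 2 and 3 the values were 0.40 for Foxp2, 0.35 for Syt6, -0.29 for Ntsr1, -0.21 for Fezf2 and -0.11 for Etv1, which had -0.25 without Control replicate 3 alone. All 11 striatal markers were positive here (median 1.14) and all 8 excitatory neuron markers negative (median -0.34). Adding the striatal level as a covariate gave 0.15 for Foxp2 (SE 0.18), 0.079 for Syt6 (SE 0.15), -0.089 for Ntsr1 (SE 0.13), 0.061 for Fezf2 (SE 0.17) and 0.020 for Etv1 (SE 0.16). No member separated the 2 groups, as 2.84% of all genes did.

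In SCZ+c-MSST against Control+c-MSST, neither group holds the Control replicates that stood apart, but libraries with low striatal signal remain. Drd2 was 1.303 CPM in Control+c-MSST replicate 6 and 5.75 CPM in replicate 7, and 15.5 to 58.0 CPM in the others of that group. In Control replicates 2 and 3 it was 3.93 and 2.69 CPM. Tle4 averaged 101 ± 12.4 CPM in the 4 SCZ+c-MSST libraries and 82.1 ± 6.498 CPM in the 5 Control+c-MSST libraries. Its log2 fold change was 0.30 (SE 0.083, 95% interval 0.13 to 0.48), with the smallest p of the 10 and an adjusted p of 0.278. Without SCZ+c-MSST replicate 3, the highest library at 119 CPM, the Tle4 value was 0.22. Foxp2 had 0.67 (SE 0.33, adjusted p = 0.480) and Syt6 0.64 (SE 0.36, adjusted p = 0.549). Fezf2 had -0.47 (SE 0.23, adjusted p = 0.478) and Ntsr1 -0.36 (SE 0.17, adjusted p = 0.459), which was -0.22 without Control+c-MSST replicate 6. None passed in edgeR, DESeq2 or limma voom, and edgeR called 0% of all genes. Tle4 was the 1 member at an unadjusted p under 0.05, against 11% of all genes, and the 1 member without overlap, against 4.67% of all genes. All 11 striatal markers (median 1.10) and all 10 oligodendrocyte markers (median 0.40) were positive in this comparison as well, and all 8 excitatory neuron markers negative (median -0.16). Adjusted for the striatal level, Tle4 had 0.19 (SE 0.076), Foxp2 0.023 (SE 0.18), Syt6 -0.093 (SE 0.15), Fezf2 -0.031 (SE 0.17) and Ntsr1 -0.043 (SE 0.13).

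**Figure D3:**
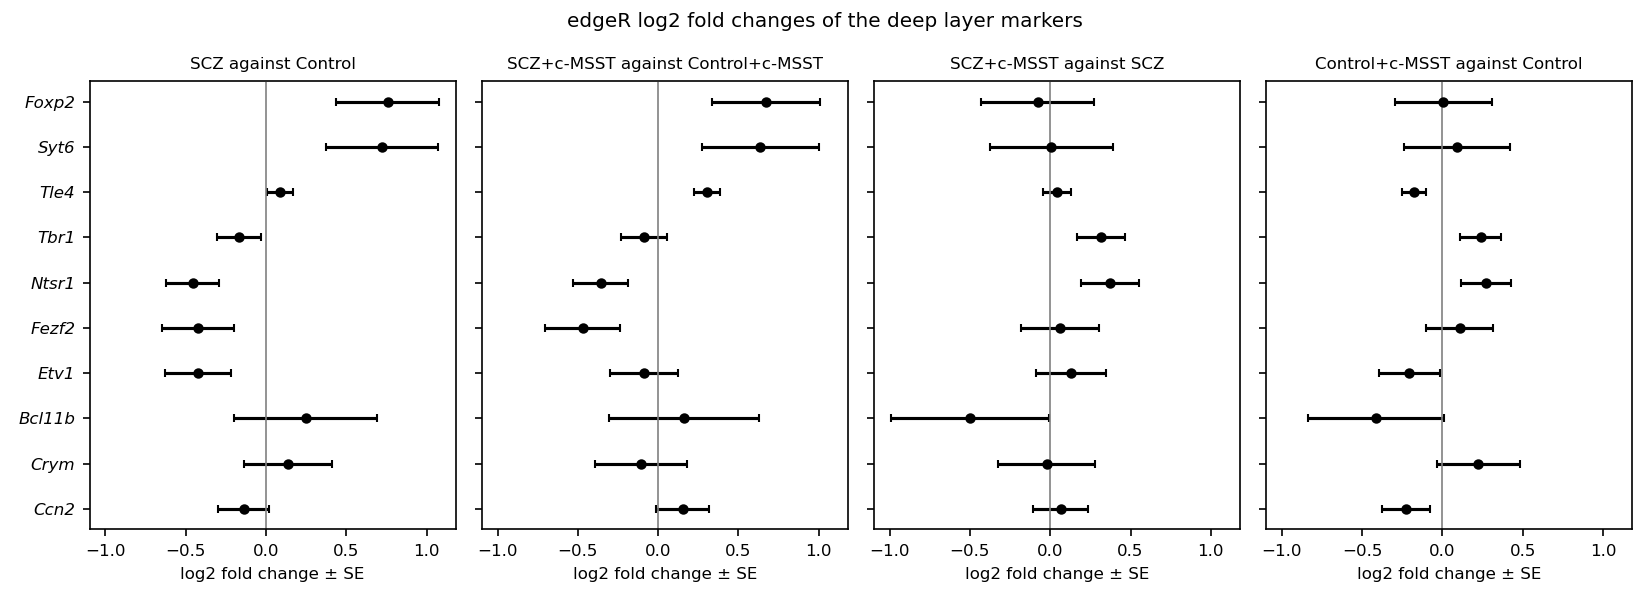
edgeR log2 fold change ± SE (x axis) of the 10 members (y axis) in 4 comparisons, each in its own panel with the same x range. The Foxp2 and Syt6 points lie between 0.64 and 0.76 in both MK-801 panels, and the Tbr1 and Ntsr1 points between 0.24 and 0.37 in both c-MSST panels.

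The effect of c-MSST was asked within each drug group. In SCZ+c-MSST against SCZ, Tbr1 averaged 215 ± 17.9 CPM in SCZ+c-MSST and 173 ± 19.5 CPM in SCZ (n = 4 each), a log2 fold change of 0.32 (SE 0.15, 95% interval -0.0082 to 0.64, adjusted p = 0.665). Ntsr1 averaged 12.8 ± 1.43 CPM in SCZ+c-MSST and 9.88 ± 1.40 CPM in SCZ, a log2 fold change of 0.37 (SE 0.18, -0.014 to 0.76, adjusted p = 0.667). These were the 2 members without overlap, against 8.28% of all genes. No member passed the edgeR test or reached an unadjusted p under 0.05, where edgeR called 0% of all genes and had 7.56% under the unadjusted threshold, and neither DESeq2 nor limma voom called a member. Zic1, a marker of septal and medial forebrain cells, was 10.9 to 16.9 CPM in SCZ+c-MSST and 13.5 to 51.6 CPM in SCZ. All 7 septal markers (median -1.04, 5 at an unadjusted p under 0.05), all 10 choroid plexus markers (median -0.73) and all 10 oligodendrocyte markers (median -0.26) had negative values, and all 8 excitatory neuron markers positive ones (median 0.21), none of them called. With the striatal level alone as a covariate, Tbr1 had 0.32 (SE 0.16) and Ntsr1 0.32 (SE 0.12). With the striatal, septal and choroid plexus levels as covariates, Tbr1 had -0.0051 (SE 0.11) and Ntsr1 0.43 (SE 0.16). With the excitatory neuron level instead, Tbr1 had 0.11 (SE 0.14) and Ntsr1 0.36 (SE 0.21).

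In saline mice, Control+c-MSST against Control gave the same 2 genes positive values, Tbr1 0.24 (SE 0.13, adjusted p = 0.375) and Ntsr1 0.27 (SE 0.15, adjusted p = 0.394), and Tle4 a negative one of -0.18 (SE 0.075, 95% interval -0.34 to -0.015, adjusted p = 0.252). None of the 10 members was among the 54 genes called by edgeR (0.329%), 38 of which rose and 16 fell, and DESeq2 and limma voom called no member. Tle4 was the 1 member at an unadjusted p under 0.05, against 16.6% of all genes. Without Control replicates 2 and 3, Tbr1 had 0.071, Ntsr1 0.44 and Tle4 -0.21. Ntsr1 had 0.13 without Control+c-MSST replicate 6. No member separated the groups, as 1.6% of all genes did. All 10 choroid plexus markers (median -3.89, each at an unadjusted p under 0.05), all 10 oligodendrocyte markers (median -0.57, 9 under that threshold) and all 7 septal markers (median -0.45) were negative, none of them called. Ttr was 1607 and 150 CPM in Control replicates 2 and 3, and 0.289 to 6.98 CPM in the other Control libraries. It was 0.0296 to 0.844 CPM in Control+c-MSST. The choroid plexus medians here and in the averaged comparisons include Control replicates 2 and 3, and medians without them are not given. The striatal level alone as a covariate gave 0.24 for Tbr1 (SE 0.13), 0.28 for Ntsr1 (SE 0.10) and -0.18 for Tle4 (SE 0.061). Covariates for the striatal, septal and choroid plexus levels gave -0.062 for Tbr1 (SE 0.085), 0.30 for Ntsr1 (SE 0.12) and -0.18 for Tle4 (SE 0.076).

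Averaged over both drug groups, c-MSST against none gave Tbr1 a log2 fold change of 0.28 (SE 0.100, 95% interval 0.064 to 0.49, adjusted p = 0.196) and Ntsr1 one of 0.32 (SE 0.12, 0.068 to 0.57, adjusted p = 0.201). Tbr1 averaged 223 ± 14.8 CPM in the 9 c-MSST libraries and 186 ± 39.5 CPM in the other 10, and Ntsr1 averaged 14.8 ± 3.51 CPM in c-MSST libraries and 12.1 ± 2.95 CPM in the others. Without Control replicates 2 and 3 the values were 0.19 for Tbr1 and 0.41 for Ntsr1. No member was called by edgeR, which called 2 genes (0.0122%), nor by DESeq2 or limma voom. These 2 members were the ones at an unadjusted p under 0.05, against 15.8% of all genes, and the groups overlapped for all 10, where 0.0183% of all genes had no overlap. All 10 choroid plexus markers (median -2.23), all 7 septal markers (median -0.73) and all 10 oligodendrocyte markers (median -0.41) had negative values, and 7 of 8 excitatory neuron markers positive ones (median 0.15), none of them called. With the striatal level alone as a covariate in the edgeR fit, Tbr1 had 0.28 (SE 0.10, adjusted p = 0.177). Ntsr1 had 0.30 in that fit (SE 0.077, adjusted p = 0.0749). Adding the septal and choroid plexus levels gave -0.033 for Tbr1 (SE 0.076) and 0.37 for Ntsr1 (SE 0.11, adjusted p = 0.381).

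SCZ+c-MSST against Control, which changes both drug and c-MSST, gave Foxp2 0.68 (SE 0.32, adjusted p = 0.494) and Syt6 0.73 (SE 0.35, adjusted p = 0.501), and 0.32 and 0.35 without Control replicates 2 and 3. All 11 striatal markers were positive (median 0.93), and with their level as a covariate Foxp2 had 0.16 (SE 0.17) and Syt6 0.18 (SE 0.14). Both were lower still, at 0.040 and 0.083, with the septal and choroid plexus levels added. This comparison shares its libraries with the comparisons above. No member was called by edgeR, DESeq2 or limma voom, edgeR called 0% of all genes, and 1 member, Foxp2, had an unadjusted p under 0.05, against 10.1% of all genes. No member separated the groups, as 1.65% of all genes did. The interaction, the effect of c-MSST under MK-801 less that under saline, was largest relative to its error in Tle4 (0.22 on the log2 scale, SE 0.12, adjusted p = 0.716, 0.25 without Control replicates 2 and 3, and 0.13 without SCZ+c-MSST replicate 3). No member was called or had an unadjusted p under 0.05 for the interaction, where edgeR called 0% of all genes and 7.29% were under the unadjusted threshold.

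The members varied together in 2 opposed sets across the 19 libraries. Foxp2 and Syt6 were nearly proportional (r = 0.97, rho = 0.96, adjusted permutation p = 2e-04 for both). Fezf2 went with Etv1 (r = 0.84, adjusted p = 2e-04; rho = 0.85) and with Ntsr1 (r = 0.73, adjusted p = 0.0029; rho = 0.74). Across the sets the sign turned: Etv1 ran against Foxp2 (r = -0.80; rho = -0.68) and Syt6 (r = -0.80; rho = -0.68), and Fezf2 against Foxp2 (r = -0.74; rho = -0.77) and Syt6 (r = -0.75; rho = -0.80). Of 45 pairs, 13 passed a permutation test on both r and rho, with p adjusted over all 145 relations computed, 6 positive and 7 negative. Tle4 went with Foxp2 (r = 0.60; rho = 0.74) and Syt6 (r = 0.62; rho = 0.72) and against Ntsr1 (r = -0.68; rho = -0.75). Tbr1, Bcl11b, Crym and Ccn2 were in none of the 13.

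**Figure D4:**
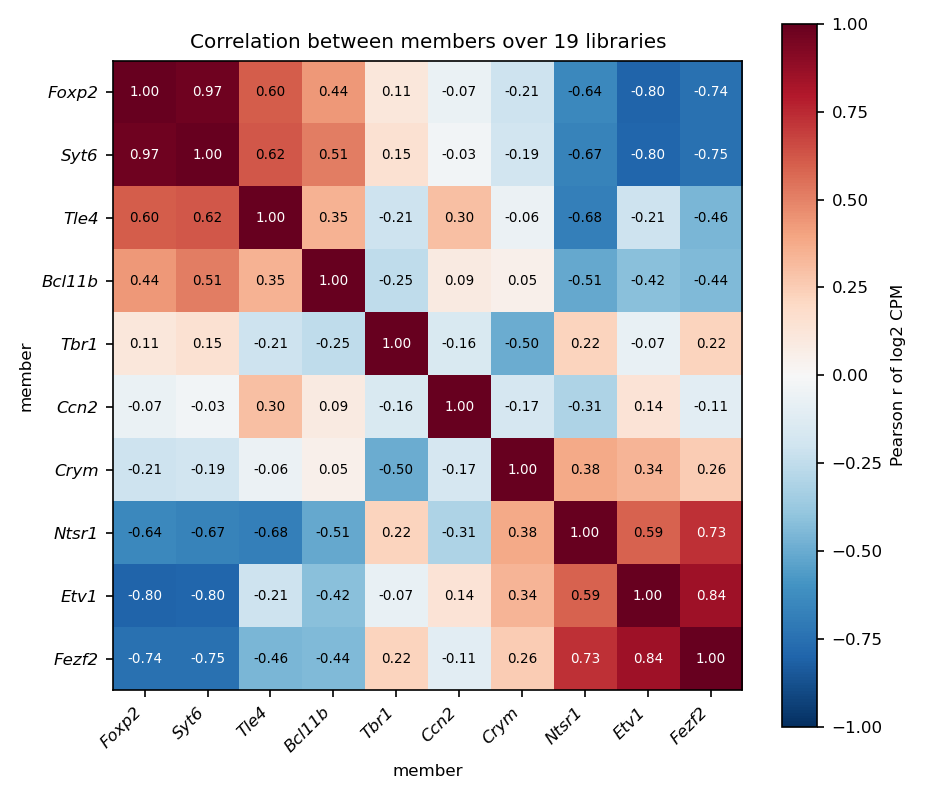
Pearson r of log2 CPM between each pair of members over 19 libraries (colour scale from -1 to 1, value in each cell). Foxp2, Syt6 and Tle4 form a positive block and Ntsr1, Etv1 and Fezf2 another, with negative values between most of them, down to -0.80.

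The same division was seen against the striatal level, the mean log2 CPM of the 11 striatal markers. Syt6 (r = 0.95; rho = 0.96), Foxp2 (r = 0.93; rho = 0.94) and Tle4 (r = 0.71; rho = 0.71) went with it. Fezf2 (r = -0.84; rho = -0.82), Ntsr1 (r = -0.80; rho = -0.84) and Etv1 (r = -0.77; rho = -0.74) ran against it. All 6 passed at adjusted permutation p values of at most 0.0046. With group means subtracted, so that only differences between libraries of 1 group remain, r was 0.94 for Syt6, 0.89 for Foxp2, 0.64 for Tle4, -0.78 for Fezf2, -0.80 for Ntsr1 and -0.77 for Etv1. Leaving out Control replicates 2 and 3, the libraries farthest from the median striatal level, r was 0.95, 0.90, 0.81, -0.81, -0.80 and -0.59 in the same order of genes.

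Bcl11b missed the threshold (r = 0.54, adjusted permutation p = 0.0502; rho = 0.70), and Crym (r = -0.20), Ccn2 (r = 0.10) and Tbr1 (r = -0.022) were near 0. The Tbr1 value rested on Control replicates 2 and 3, without which r was -0.65. The 6 genes with a relation to the striatal level also followed the septal markers and the interneuron markers in the same directions, Ntsr1 having the strongest negative relation to the interneuron level (r = -0.83; rho = -0.90). Bcl11b followed both as well (r = 0.67; rho = 0.74 for septal and r = 0.58; rho = 0.71 for interneuron markers). The best expressed interneuron markers were Gad1 and Gad2, and whether the interneuron level is separate from the striatal level was not tested. Against the excitatory neuron level, Tbr1 (r = 0.62; rho = 0.65) and Fezf2 (r = 0.60; rho = 0.58) were positive, and Foxp2 (r = -0.59; rho = -0.73), Bcl11b (r = -0.56; rho = -0.68) and Syt6 (r = -0.55; rho = -0.73) negative, all past the threshold. With group means subtracted, only r was examined here, not rho. Tbr1 then had r = 0.56 (adjusted permutation p = 0.0466), and whether it passed on rho as well is not given. Fezf2 (r = 0.43, 0.158), Foxp2 (r = -0.35, 0.249), Bcl11b (r = -0.53, 0.0611) and Syt6 (r = -0.35, 0.255) no longer passed. Ntsr1 ran against the oligodendrocyte level as well (r = -0.77; rho = -0.67), and Tle4 with it (r = 0.57; rho = 0.60). Subtracting group means left r at -0.70 for Ntsr1 (adjusted permutation p = 0.0039) and at 0.36 for Tle4 (0.247), and it also took Tle4 below the threshold against the septal (r = 0.42, 0.160) and interneuron levels (r = 0.46, 0.129) and Ntsr1 against the septal level (r = -0.54, 0.0579). No member passed against the astrocyte, endothelial, fibroblast or upper layer marker levels. These marker levels share libraries and scaling with the members. The fits with and without covariates are both given with the comparisons, and which of them describes the members better was not tested.

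**Figure D5:**
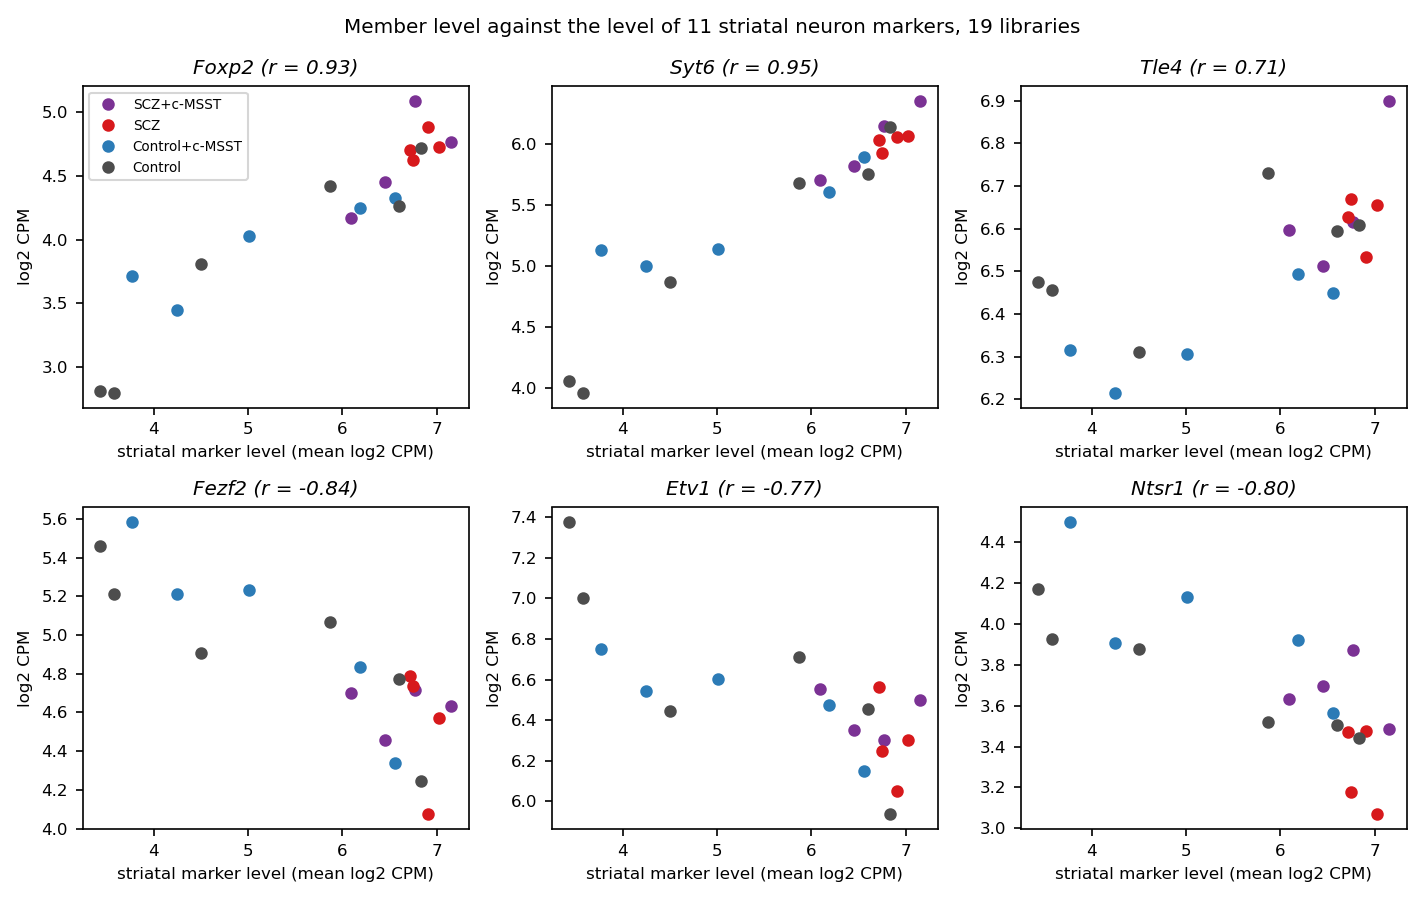
Log2 CPM of 6 members (y axes) against the mean log2 CPM of 11 striatal markers (x axes) in 19 libraries coloured by group, with Pearson r. Foxp2, Syt6 and Tle4 increase along the axis and Fezf2, Etv1 and Ntsr1 decrease, with libraries of one group spread along it, Control from 3.43 to 6.84.

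By likeness over the 19 libraries among 14052 genes, Syt6 was nearest to Gnal (r = 0.98), Phactr1 (0.98) and Foxp2 (0.97), and Foxp2 to Syt6 (0.97), Elmo1 (0.97) and Gnal (0.96). Fezf2 was nearest to Slc4a10 (0.90), Grp (0.90) and Sept9 (0.88), and Etv1 to Gpr22 (0.90), Parm1 (0.89) and Npr3 (0.89), and Parm1 and Npr3 are on the layer 5 extratelencephalic list. Tbr1 was nearest to Stx1a, Spock1 and Car10 (0.94 each), Tle4 to Kcna4 (0.89), Neto1 (0.88) and Cacnb2 (0.87), and Ntsr1 to Fbln2 (0.92), Hrh1 (0.92) and Rhof (0.89). Crym was nearest to Dpysl5 (0.91), Camkv (0.89) and Sec24d (0.89). Bcl11b (Prkd3 0.81, Rps25 0.80, Mrps10 0.77) and Ccn2 (Npbwr1 0.74, Armcx3 0.73, Mgp 0.72) had the weakest nearest genes.

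Other genes of the same layers were taken from 5 wider lists, and none of their 38 genes was called by edgeR in any of the 8 comparisons. For MK-801 against saline, 8 of 10 layer 5 extratelencephalic genes were negative (median -0.14), 5 of 8 layer 5 intratelencephalic (median -0.058), 2 of 5 near-projecting (median 0.12), 5 of 10 layer 6 corticothalamic (median -0.0033) and 4 of 5 layer 6b (median -0.18). Of 10 upper layer markers, 8 were negative (median -0.19), also with none called. Hs3st4, a heparan sulfate sulfotransferase of layer 6, averaged 64.7 ± 2.34 CPM in SCZ+c-MSST libraries, 63.2 ± 6.98 CPM in SCZ, 65.9 ± 6.37 CPM in Control+c-MSST and 71.6 ± 7.78 CPM in Control. Vat1l, a marker of layer 5 extratelencephalic neurons, averaged 80.1 ± 10.5 CPM in SCZ+c-MSST libraries, 103 ± 11.7 CPM in SCZ, 77.2 ± 12.3 CPM in Control+c-MSST and 74.9 ± 19.05 CPM in Control. Vat1l went against most of its list, with a log2 fold change of 0.26 (SE 0.12) for MK-801 against saline. Ldb2, of the same list, had -0.17 (SE 0.11) and averaged 59.6 CPM in SCZ and 69.7 CPM in Control.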

How the data were processed

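RNA from 19 left prelimbic cortex samples was sequenced with a stranded total RNA kit, per the labels' protocols. The tools were StringTie 1.3.5, STAR 2.7.7a, fastp 0.19.5 and Picard 2.18.29 with the build mm10, per the submitters' processing notes. In the sources used here, their order, the annotation and any use of strand in counting are not given. The authors deposited estimated counts per gene, which were whole numbers as found and were not rounded, and FPKM values, which the authors scaled by gene length and depth. Libraries were grouped by title. The deposited gene totals ran from 50140626 to 82416746 counts, and at that depth a gene with a count of 0 could have up to 3 counts (0.0348 to 0.0620 CPM), for counting error only.

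In R 4.3.3, edgeR 4.0.16 (filterByExpr, TMM, robust quasi-likelihood fit with 1 coefficient per group over all 19 libraries) tested 8 comparisons over 16417 genes, with Benjamini-Hochberg adjustment over all of them. Log2 CPM used a prior count of 2. Member fold changes are given for an unadjusted edgeR p under 0.1. Correlations of log2 CPM were tested with 100000 permutations, two-sided, and adjusted over 145 relations. Named genes were all 10 members, the 2 best expressed members of another list with no called gene, and the 3 genes most like each member; Drd2, Slc17a7, Zic1 and Ttr were named after their values were seen. The members and lists were chosen with earlier results of these data known. Tests were checked on simulated data, but the outcome is not given here and no call rests on it. Alternatives were DESeq2 1.42.0, limma 3.58.1 (voom, and log2 FPKM with a pseudocount of 1 or 0.1), other scaling and filters, a replicate block, marker levels as covariates and leaving out libraries. Positions come from the GENCODE annotation of GRCm38 (mm10), promoters from RefSeq (GRCm38.p6).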

Additional observations from a re-analysis of the deposited data

Results flagged for a closer look

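Of 40 sets of values (10 members in 4 groups), 4 held a library far from the others of its group, where chance flags about 1 in 20. Bcl11b was at 278 CPM in SCZ replicate 3, against 98.0 to 106 CPM in the other 3 SCZ libraries. Tbr1 was at 242 CPM in SCZ+c-MSST replicate 5, the highest of its group, against 203 to 209 CPM in the others. Tbr1 was also at 144 CPM in SCZ replicate 5, the lowest of its group, against 180 to 187 CPM in the others, and that library held the highest Zic1 level, 51.6 CPM. Ccn2 was at 33.3 CPM in Control replicate 3, against 20.7 to 24.3 CPM in the other 5 Control libraries, and that library held 150 CPM of Ttr. Control replicate 2, with 1607 CPM of Ttr, had the lowest Ccn2 level of the Control libraries, 20.7 CPM, and over the 19 libraries Ccn2 had r = 0.15 with the choroid plexus level (adjusted permutation p = 0.686; rho = 0.021). Tbr1 had r = -0.47 with the septal level (adjusted permutation p = 0.100; rho = -0.58) and r = -0.78 with the choroid plexus level (adjusted permutation p = 2e-04; rho = -0.88). The choroid plexus level rests on low counts outside Control replicates 2 and 3.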

How the results depend on the processing

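The number of members called was 0 in every comparison under every alternative and with each library left out, with 1 exception, the 2 members called by DESeq2 for MK-801 against saline. Leaving out 1 library in turn, the lowest and the highest number of members called were 0 in each of the 8 comparisons, and none of the 26 fold changes reported changed sign. With the replicate number as a block, 0 members and 0 genes were called in every comparison. No pairing by replicate number was seen. With group means subtracted, same-numbered libraries of different groups had a median correlation of -0.012 (19 pairs, 1 above 0.1). Libraries of different number had 0.0016 (115 pairs, 21 above 0.1). A weak shared source could go unseen in this check. With the striatal level as a covariate the sign turned for Fezf2 (0.061) and Etv1 (0.020) in SCZ against Control, for Syt6 (-0.093) in SCZ+c-MSST against Control+c-MSST, and for Fezf2 (0.015), Etv1 (0.14) and Syt6 (-0.0071) in MK-801 against saline. With striatal, septal and choroid plexus levels together it turned for Fezf2 (0.10) and Etv1 (0.086) in SCZ against Control, Fezf2 (0.030) and Etv1 (0.15) in MK-801 against saline, and Tbr1 in c-MSST against none (-0.033), with -0.0051 among MK-801 mice and -0.062 among saline mice. The cause was not tested. Counts over all genes were less stable: Control+c-MSST against Control gave 54 with edgeR, 567 with DESeq2, 8 with limma voom, 259 on FPKM, 193 with the striatal covariate, 0 without Control+c-MSST replicate 6 and 314 without Control replicate 7. SCZ against Control gave 243 with DESeq2 and up to 94 without Control replicate 4, MK-801 against saline 587 (DESeq2), 190 (limma voom) and up to 286 without Control replicate 4, each against 0 with edgeR. The c-MSST against none comparison gave 2 with edgeR, 456 with DESeq2, 259 with limma voom and up to 223 without Control replicate 7. Where edgeR called 0, SCZ+c-MSST against SCZ gave 62 with DESeq2, 43 with limma voom and 31 with those groups alone, SCZ+c-MSST against Control+c-MSST 73 and 39 with the first pair of tools, and DESeq2 gave 92 for SCZ+c-MSST against Control and 40 for the interaction. Members related to the striatal level numbered 6 or 7 and member pairs 11 to 13 over 4 alternatives. The Ntsr1 relations to Tle4 (r = -0.42) and Foxp2 (-0.56) no longer passed on FPKM, nor Tle4 to Foxp2 (0.52), Ntsr1 to Foxp2 (-0.57) and Ntsr1 to Etv1 (0.63) with group means subtracted, nor Etv1 to Foxp2 (-0.55), Ntsr1 to Etv1 (0.52) and Syt6 to Tle4 (0.57) without the 2 farthest libraries. A fit of 2 groups alone does not apply to the averaged comparisons or the interaction. With 4 to 6 libraries a group, a missed threshold does not show that levels were equal.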

Other observations

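Tshz2, a marker of near-projecting deep layer neurons, averaged 39.5 ± 4.75 CPM in SCZ+c-MSST libraries, 50.8 ± 5.41 CPM in SCZ, 45.8 ± 4.80 CPM in Control+c-MSST and 111 ± 87.4 CPM in Control, where single libraries ran from 38.2 to 243 CPM. Nr4a2, an orphan nuclear receptor of layer 6b, averaged 37.7 ± 8.79 CPM in SCZ+c-MSST libraries, 25.3 ± 6.30 CPM in SCZ, 28.7 ± 16.7 CPM in Control+c-MSST and 48.5 ± 24.6 CPM in Control. Scube1, of the layer 5 intratelencephalic list, averaged 97.2 ± 21.7 CPM in SCZ+c-MSST libraries, 76.0 ± 13.5 CPM in SCZ, 118 ± 22.5 CPM in Control+c-MSST and 84.0 ± 38.6 CPM in Control. The remaining best expressed genes of the wider lists were Lypd1 (46.5 to 62.6 CPM as group means), Ldb2 (59.6 to 75.9 CPM), Deptor (17.8 to 21.6 CPM), Garnl3 (115 to 140 CPM) and Cplx3 (11.1 to 14.6 CPM). None of these genes was called by edgeR in any comparison.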
